A study of Mus musculus with 60 samples.

Results

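The snRNP and core spliceosome genes described here are the protein-coding genes of the table whose symbols begin with Snrp, Lsm, Sf3a, Sf3b or Prpf, with the imprinted gene Snrpn left out. The rule found 47 genes among the 27238 of the table, of which 27056 could be matched by Ensembl identifier to an annotated symbol. Sorted by role, they comprised 7 Sm core genes, 4 genes of U1 and U2 particle proteins, 7 genes of the Lsm2 to Lsm8 ring, 6 further Lsm genes, 9 genes of the SF3a and SF3b complexes, 8 Prpf genes of the tri-snRNP and its partners, 5 further Prpf genes and Lsmem1. Lsmem1 carries a matching symbol but encodes a membrane protein with no tie to splicing, and it was above 0 in few libraries.

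Most mouse genes contain introns, and the spliceosome removes them from the pre-mRNA. It assembles from small nuclear ribonucleoproteins (snRNPs), each a small nuclear RNA bound by a ring of Sm proteins (or, for U6, of Lsm proteins) together with particle-specific proteins. SF3a and SF3b belong to the U2 snRNP and help it bind the branch point, and several Prpf proteins are built into the U4/U6 and U5 particles. In the mouse embryo, stored maternal RNA is cleared and the zygotic genome is activated around the first cleavages, and the RNAs for such general factors are part of what the embryo must then make itself.

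Single embryos were profiled by RNA-seq at 6 stages from the 1-cell embryo through the 2-cell, 4-cell and 8-cell embryo and the morula to the blastula, all on a BDF1 background (C57BL/6 female by DBA2 male). The in vivo embryos came from superovulated C57BL/6 females mated with DBA2 males. The NTC embryos were made by nuclear transfer of cumulus cell (CC) nuclei, and the NTM embryos by nuclear transfer of mouse embryonic fibroblast (MEF) nuclei, into BDF1 oocytes, and both kinds were activated with strontium, cytochalasin B and Scriptaid and then cultured in vitro, which the in vivo embryos were not. Each of the 20 groups (18 embryo groups and the donor CC and MEF) held 3 libraries. The embryos were chosen by their morphology. In any comparison of NT with in vivo embryos, nuclear transfer, activation, culture and the strain of the oocyte (BDF1 for NT, C57BL/6 in vivo) cannot be told apart.

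Values are RPKM, reads per kilobase of gene, scaled to the reads of the library. Read totals recovered from the steps of the low values ran from 5294165 to 47830135 per library (median 15451424), and from 5294165 to 26281524 in the embryos. For a gene of 2000 bases, 3 reads then correspond to between 0.0314 and 0.283 RPKM. The share of reads on mitochondrial genes was 5.68% to 8.87% in the in vivo 4-cell libraries but 20.4% to 64.2% in the other embryo libraries from the 4-cell stage on. The in vivo 4-cell libraries also had more genes above 0 (13576 to 13932) than the NTC 4-cell (10824 to 11929), NTM 4-cell (8997 to 10930) and in vivo 8-cell libraries (9913 to 10304). Stage and any difference in the handling or batch of these 3 libraries cannot be told apart from the labels, and the main comparisons rest on them. The in vivo blastula libraries had only 7730 to 7808 genes above 0. Of the marker lists, the 12 MEF genes summed to 5738 RPKM or more in MEF and to at most 7.54 RPKM in CC, whereas the 12 CC genes did not separate the donors (499 to 1396 RPKM in CC, 516 to 1203 in MEF), with 8 of them over a mean of 1 RPKM in CC and 4 in MEF. The donor lists stayed at or below 56.4 RPKM (CC) and 23.2 RPKM (MEF) in the 4-cell libraries of all 3 kinds, and the 12 oocyte genes fell from 3217 to 6712 RPKM in the in vivo 1-cell to 78.3 to 107 RPKM in the in vivo 4-cell libraries. In 1 embryo, fewer cells with a transcript and less transcript per cell cannot be told apart.

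The promoters of the members with the largest differences between NT and in vivo 4-cell embryos are shown, a choice made on these same data (RefSeq, GRCm38.p6, 150 bases before the annotated start, 5′ to 3′). Prpf39 (chr12:65036184-65036333, plus strand), Snrpa (chr7:27196272-27196421, minus strand) and Snrpb2 (chr2:143062919-143063068, plus strand) had an entry. Sf3b5 was without one, and that of Snrpd1 is not shown. Capitals mark every match, on either strand, to the 7 motifs listed after the sequences.
Prpf39: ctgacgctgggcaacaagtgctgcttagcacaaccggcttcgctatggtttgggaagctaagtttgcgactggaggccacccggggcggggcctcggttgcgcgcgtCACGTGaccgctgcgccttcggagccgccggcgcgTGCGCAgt
Snrpa: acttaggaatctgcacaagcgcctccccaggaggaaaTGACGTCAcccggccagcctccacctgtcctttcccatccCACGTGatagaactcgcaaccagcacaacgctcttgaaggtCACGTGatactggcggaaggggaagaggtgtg
Snrpb2: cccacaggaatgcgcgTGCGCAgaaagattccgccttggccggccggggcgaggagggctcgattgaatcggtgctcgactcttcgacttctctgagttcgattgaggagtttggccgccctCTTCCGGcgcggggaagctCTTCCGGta

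The 7 motifs were searched on both strands over 250 bases before to 50 after the start, and no motif lies within another. Prpf39 held an E-box (CACGTG) and an NRF1 core (TGCGCA), Snrpa a CRE (TGACGTCA) and 2 E-boxes, and Snrpb2 2 ETS motifs (CCGGAAG, read here from the other strand) and an NRF1 core, while none of the 3 printed stretches held a TATA box (TATAAA), the CCAAT letters or the YY1 motif (AAGATGGCG). Of the 38 members with a promoter in the RefSeq set, 14 (36.8%) held the NRF1 core, against 11.9% of the 13865 promoters of protein-coding genes in the table, and 14 (36.8%) held the ETS motif, against 14.3%. The CCAAT letters were in 17 members (44.7%, against 38.5%), the E-box in 4 (10.5%, against 9.01%), the YY1 motif in 3 (7.89%, against 2.42%), the TATA box in 2 (5.26%, against 9.56%) and the CRE in 2 (5.26%, against 2.78%). These are matches of letters and say nothing of binding. The members' promoters had a median GC content of 58.2%, close to the 58.7% of all promoters, and a median ratio of observed to expected CpG of 0.9, against 0.682.

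The level of these genes peaked in 1 group. Of the 47 members, 26 had their highest group mean in the in vivo 4-cell embryos, and among the 43 with a mean of at least 0.5 RPKM over the 60 libraries 24 did (55.8%), against 14.5% of the 13535 genes of the table past the same limit. The summed level of the members was 3441 ± 260 RPKM (SD, n = 3) in in vivo 4-cell embryos. The next highest group, in vivo 8-cell, reached 1016 ± 90.8 RPKM, and NTC and NTM 4-cell embryos 894 ± 147 and 989 ± 69.6 RPKM. These sums are scaled to totals that include mitochondrial reads. Their share was at most 8.87% in in vivo 4-cell libraries and at least 29.6% in those of the groups set against them. Sums without mitochondrial reads are not given here. In 18 members (17 of the 43), all 3 in vivo 4-cell libraries lay above the other 57 libraries, donor cells included, where 6.95% of the 13535 genes did. The widest gap was at Sf3b5, whose lowest in vivo 4-cell library was 21.9-fold above the highest other library, followed by Snrpd1 (15.9-fold) and Lsm2 (6.19-fold).

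**Figure D1:**
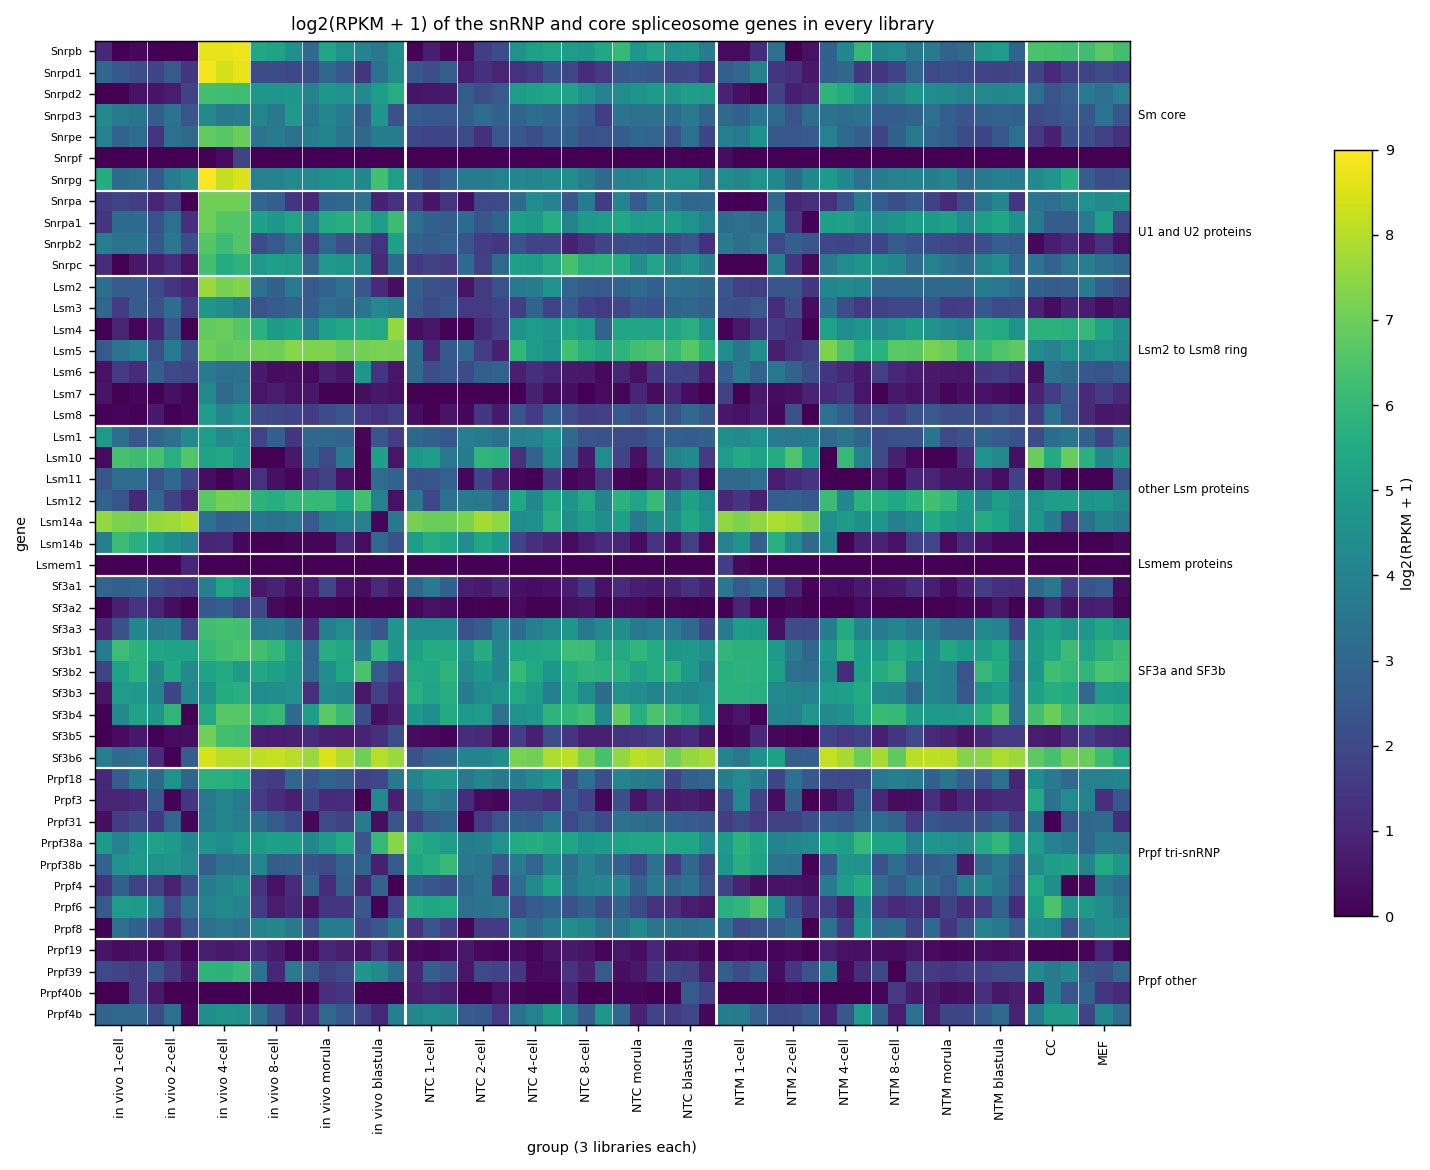
log2(RPKM + 1) of 46 of the genes (rows, by role) in the 60 libraries (columns, 3 per group), where yellow is high and dark blue is 0. The 3 in vivo 4-cell columns have the highest mean for 26 of the 47 genes, and Lsm14a is bright only in the 1-cell and 2-cell columns of all 3 kinds of embryo.

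Along in vivo development, differences were tested with limma on log2(RPKM + 1) for genes with a mean of at least 0.5 RPKM in the libraries compared. A gene was called at a Benjamini-Hochberg adjusted p below 0.05 over all genes tested and a difference of 1 or more on the log2 scale. A member under 0.5 RPKM in 1 group passed the filter only through the other, so its direction was fixed. At the in vivo steps this held for Snrpb, Lsm7, Lsm8, Sf3a2 and Sf3b5 (low at the 2-cell stage) and Lsm11 (at the 4-cell stage). It also held for Lsm6, Lsm7 and Lsm10 (at the 8-cell stage). No member was called between the 1-cell and the 2-cell stage (39 tested, 1 with an unadjusted p below 0.05, and 0% of all genes called). Between 2-cell and 4-cell embryos, 31 of 43 members rose and 5 fell (31.4% and 20.8% of all genes), with a median log2 fold change of 2.70 against 0.36 over all genes. Between 4-cell and 8-cell embryos, 28 of 42 fell and none rose (39.3% and 4.4% of all genes), with a median of -2.10 against -1.05 over all genes.

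The Sm core proteins form the ring around the snRNAs of U1, U2, U4 and U5. Snrpb, which encodes the SmB protein, was listed at 0 in each of the in vivo 2-cell libraries, at 412, 413 and 436 RPKM in the 4-cell libraries and at 40.03, 34.99 and 22.1 RPKM in the 8-cell libraries. Its rise of 8.72 ± 0.31 (SE) on the log2(RPKM + 1) scale (adjusted p = 1.77e-05) depends on the pseudocount, since the 2-cell values are 0. Snrpd1, which encodes SmD1, was at 2.69, 4.90 and 1.66 RPKM in the 2-cell, at 463, 335 and 408 RPKM in the 4-cell and at 3.26, 3.11 and 2.88 RPKM in the 8-cell libraries. The 3 stages of Snrpd1 thus did not overlap between the 4-cell and either neighbour, with a rise of 6.69 ± 0.40 (adjusted p = 3.57e-05) and a fall of 6.61 on the log2 scale (SE 0.28, adjusted p = 1.42e-05). Snrpg, for SmG, had the highest mean log2(RPKM + 1) of the ring over the embryos, with 4.55, 11.8 and 17.7 RPKM at the 2-cell, 493, 287 and 369 RPKM at the 4-cell and 14.2, 14.6 and 18.2 RPKM at the 8-cell stage. Snrpd2, for SmD2, kept a larger part of its level, with 80.3, 74.4 and 73.2 RPKM at the 4-cell and 26.1, 24.6 and 27.1 RPKM at the 8-cell stage. Of the 6 Sm core genes tested, 5 rose and then fell, and Snrpd3 (SmD3) was not called at either step. Snrpf could not be read: it was at 0 in most libraries, but 85.4% of its exon bases overlap other annotated genes and its whole transcript has near-identical copies in 3 other genes.

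All 4 genes of U1 and U2 particle proteins rose between the 2-cell and the 4-cell stage. Snrpa, for the A protein of the U1 particle, went from 0.960, 1.92 and 0 RPKM to 132, 132 and 128 RPKM and was at 6.93, 5.50 and 1.57 RPKM at the 8-cell stage. Snrpa1, for the U2 A′ protein, was at 3.79, 9.12 and 1.35 RPKM at the 2-cell, at 129, 97.5 and 96.3 RPKM at the 4-cell and at 34.6, 26.7 and 37.0 RPKM at the 8-cell stage. Snrpc, for the C protein of the U1 particle, rose to 79.5, 45.9 and 57.3 RPKM and was not called at the next step, with 27.8, 32.9 and 30.7 RPKM.

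The Lsm2 to Lsm8 ring binds U6 snRNA. All 7 of its genes rose to the 4-cell stage (log2 fold changes from 1.26 to 5.92), and 6 fell to the 8-cell stage. Lsm2 was at 2.999, 1.55 and 0.960 RPKM in the 2-cell, at 198, 143 and 155 RPKM in the 4-cell and at 9.55, 6.00 and 12.1 RPKM in the 8-cell libraries. Lsm4 was at 113, 121 and 99.0 RPKM at the 4-cell and 52.9, 29.2 and 34.4 RPKM at the 8-cell stage. Lsm5 was the member that stayed high, at 129, 110 and 116 RPKM at the 4-cell, 136, 128 and 169 RPKM at the 8-cell and 139, 147 and 140 RPKM at the blastula stage.

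Of the 6 further Lsm genes, 4 fell and 1 rose to the 4-cell stage, and Lsm1 was not called (means of 11.1 and 24.0 RPKM). Lsm14a and Lsm14b belong to a branch of the family that acts on cytoplasmic mRNA rather than in splicing, and Lsm10 and Lsm11 are part of the U7 snRNP, which processes histone mRNA. Lsm14a was among the most abundant members before the 4-cell stage, with 188, 203 and 246 RPKM in the in vivo 2-cell libraries and 9.21, 5.73 and 6.08 RPKM in the 4-cell libraries, a fall of 4.75 on the log2 scale (SE 0.34, adjusted p = 5.75e-05). Lsm14b fell by 3.77 (SE 0.44, adjusted p = 0.000373) and Lsm11 by 2.19 (SE 0.42, adjusted p = 0.00381). Lsm12 was the only one of the 6 that rose, from 6.90, 2.41 and 1.06 RPKM to 104, 136 and 129 RPKM. Lsm10 was at 35.6, 41.6 and 25.6 RPKM in the 4-cell libraries and was at 0, 0 and 0.548 RPKM at the 8-cell stage, a fall of 4.90 (SE 0.40, adjusted p = 9.61e-05).

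Within SF3a and SF3b, the genes differed from one another. Of the 9, 7 rose to the 4-cell stage and 4 fell to the 8-cell stage. Sf3b6, for the p14 subunit that contacts the branch point, was at 1.204, 0 and 5.16 RPKM at the 2-cell and at 353, 265 and 255 RPKM at the 4-cell stage (a rise of 6.92 ± 0.65, adjusted p = 0.000156), and it stayed at 278, 295 and 262 RPKM at the 8-cell stage. Sf3b5, a small SF3b subunit, was at 0.0280, 0.206 and 0.252 RPKM, then at 139, 77.0 and 73.5 RPKM, and then at 0.746, 0.615 and 0.718 RPKM, a fall of 5.79 (SE 0.38, adjusted p = 4.33e-05). Both small subunits rose, and of the pair only Sf3b5 fell again. Sf3b1, the largest subunit, had the smallest called rise of the members (1.02 on the log2 scale), at 38.1, 36.1 and 35.5 RPKM at the 2-cell, 63.5, 78.8 and 85.5 RPKM at the 4-cell and 79.9, 61.2 and 30.1 RPKM at the 8-cell stage. Sf3a1 reached 13.6, 39.4 and 26.4 RPKM at the 4-cell stage and was at or below 1.08 RPKM in the 3 in vivo blastula libraries.

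The Prpf genes were mixed, and 5 of the 8 tri-snRNP genes rose and 1 fell to the 4-cell stage. Prpf38a, a factor needed for spliceosome activation, was at 35.4, 28.2 and 17.3 RPKM at the 2-cell, 24.0, 19.9 and 28.8 RPKM at the 4-cell and 29.2, 33.1 and 31.0 RPKM at the 8-cell stage, and it was not called at either step. Its relative Prpf38b fell to the 4-cell stage, from 23.9, 24.7 and 19.5 to 5.61, 8.90 and 9.71 RPKM. Prpf4b, a kinase of the tri-snRNP, rose from 3.15, 9.06 and 0.136 to 20.8, 24.0 and 23.7 RPKM. Prpf39, a U1-associated protein of alternative splicing, peaked at the 4-cell stage, with 4.14, 1.85 and 0.522 RPKM at the 2-cell, 56.6, 55.7 and 66.0 RPKM at the 4-cell and 9.92, 1.06 and 11.7 RPKM at the 8-cell stage. The later steps held almost no calls. None of 42 members was called from the 8-cell stage to the morula (1 with an unadjusted p below 0.05, 0.0116% of all genes called), and 1 of 43 from morula to blastula (0.801%). That 1 was Sf3b4, an SF3b subunit, which fell from 30.4, 102 and 68.5 to 3.47, 0.324 and 0.685 RPKM, by 4.82 on the log2 scale (SE 0.86, adjusted p = 0.0449), and its adjusted p was between 0.0642 and 0.180 without any 1 of the 6 libraries.

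**Figure D2:**
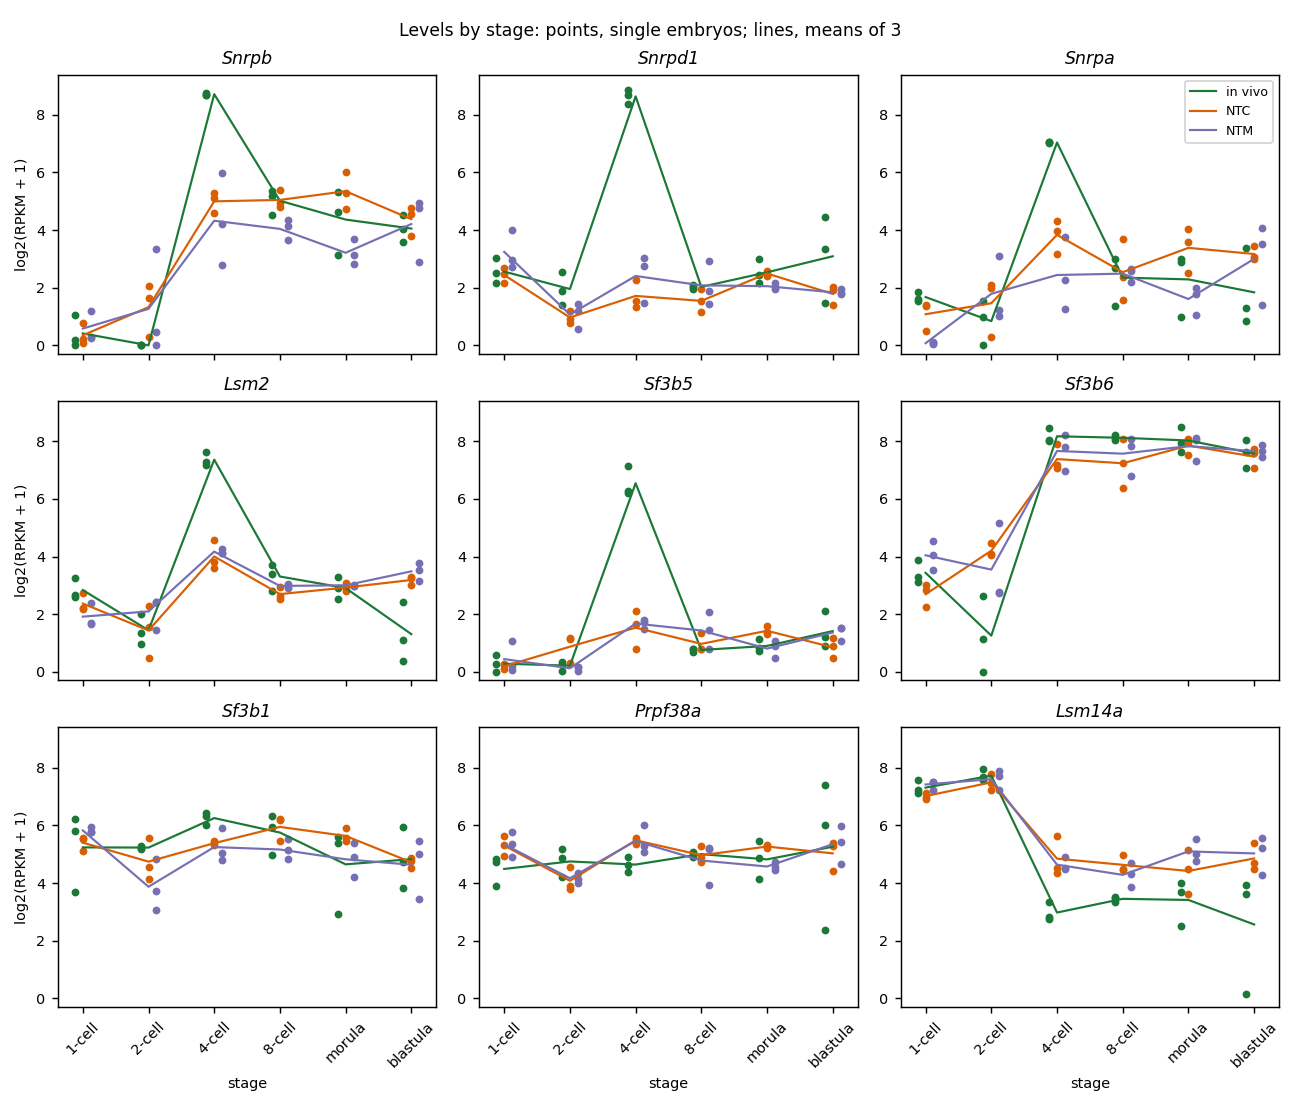
log2(RPKM + 1) of 9 members by stage in in vivo (green), NTC (orange) and NTM (purple) embryos, where each point is 1 embryo and each line joins the means of 3. Snrpb, Snrpd1, Snrpa, Lsm2 and Sf3b5 show an in vivo maximum at the 4-cell stage far above both NT lines, while Sf3b6 rises and stays, Sf3b1 and Prpf38a have no such maximum, and Lsm14a drops after the 2-cell stage.

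The same step was examined in NT embryos. Between 2-cell and 4-cell embryos, 14 of 41 members rose and 3 fell in NTC embryos (16.4% and 20.1% of all genes), with a median log2 fold change of 0.75 against -0.20 over all genes. In NTM embryos 10 of 42 rose and 1 fell (12.1% and 14.3% of all genes), with a median of 0.98 against -0.20. Members under 0.5 RPKM at 1 of the stages had a fixed direction here too. In NTM this held for Prpf4, Sf3b5 and Lsm7 (low at the 2-cell stage) and for Sf3a1 and Lsm11 (at the 4-cell stage). In NTC it held for Sf3a1 (at the 4-cell stage). The count of 11 in NTM went to 5 or 7 without NTM 2-cell replicate 2, NTM 2-cell replicate 3 or NTM 4-cell replicate 1. Lsm4, Lsm5, Sf3b6, Snrpd2 and Snrpa1 were among those that rose in both. Snrpd1 was called in neither, at 0.708, 1.30 and 0.903 RPKM in NTC 2-cell and at 1.502, 1.92 and 3.85 RPKM in NTC 4-cell embryos.

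The difference between the steps was tested as an interaction. The NT step minus the in vivo step was below 0 and called in 18 of 43 members for NTC and above 0 and called in 1 (12% and 2.38% of all genes), and for NTM it was below 0 in 13 and above 0 in none (8.05% and 1.86%). Both tests share the in vivo libraries. Sf3a2 in both tests, and Lsm7 for NTC, had a mean under 0.5 RPKM in every group but in vivo 4-cell. They passed the filter only through that group, so their direction was fixed. The largest differences for NTC were at Snrpd1 (-5.94 ± 0.60 on the log2 scale, adjusted p = 6.46e-05), Sf3b5 (-5.67 ± 0.66, adjusted p = 0.000149) and Prpf39 (-5.21 ± 0.79, adjusted p = 0.00102), and Lsm14a fell less than in vivo (2.10 ± 0.56, adjusted p = 0.0244). For NTM they were at Snrpb (-5.66 ± 1.25, adjusted p = 0.0131), Snrpa (-5.55 ± 1.03, adjusted p = 0.00548) and Snrpd1 (-5.35 ± 0.77, adjusted p = 0.00111). These tests rest on the in vivo 4-cell group: with 8-cell libraries in place of the 4-cell ones, an alternative chosen after the data were seen, 0 members were called in either interaction. The share of all genes called under that alternative is not given here.

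At the 4-cell stage, NT embryos were set against in vivo embryos directly. In NTC embryos 25 of 42 members were lower and 1 was higher (20.4% and 7.4% of all genes), with a median log2 difference of -1.64 against -0.39 over all genes. In NTM embryos 21 of 43 were lower and 1 was higher (17.8% and 3.33% of all genes), with a median of -1.78 against -0.69. The pair shares the 3 in vivo libraries, so they are no independent repeats. With median-ratio scaling, which moved the median of all genes to -0.03 in NTC and to -0.11 in NTM, 21 members were lower and 3 higher in NTC, and 12 lower and 2 higher in NTM. Shares of all genes are not given for this scaling, so these counts show only how the members' calls moved. Without in vivo 4-cell replicate 2, and likewise without replicate 3, the NTM count of 22 went to 13.

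The Sm core stood lowest. In 5 of 6 tested genes NTC embryos were below in vivo, and in 4 of 6 NTM embryos were. Snrpd1 was at 463, 335 and 408 RPKM in vivo, at 1.502, 1.92 and 3.85 RPKM in NTC and at 5.70, 7.09 and 1.75 RPKM in NTM 4-cell embryos. In reads, these are 4180 to 5571 in vivo, 12 to 33 in NTC and 27 to 83 in NTM. The difference was -6.93 ± 0.34 on the log2 scale for NTC (adjusted p = 4.87e-06) and -6.24 ± 0.49 for NTM (adjusted p = 0.000291), the largest of all members in both. Snrpb was at 23.2, 33.9 and 37.6 RPKM in NTC and 5.90, 17.4 and 62.3 RPKM in NTM, all far below the in vivo values but not at the floor. Snrpg was at 17.6, 16.5 and 18.4 RPKM in NTC and 28.8, 17.5 and 9.47 RPKM in NTM, and Snrpe, for SmE, had means of 4.33 and 9.27 RPKM against 112 RPKM in vivo. Snrpd2 lay nearer, at 30.6, 34.3 and 38.3 RPKM in NTC (called) and 57.2, 46.0 and 28.6 RPKM in NTM (not called, adjusted p = 0.162).

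Of the U1 and U2 genes, NTC embryos were lower in 3 of 4 and NTM embryos in 4 of 4. Snrpa was at 132, 132 and 128 RPKM in vivo, at 8.10, 19.1 and 14.8 RPKM in NTC and at 1.42, 3.87 and 12.6 RPKM in NTM (-4.60 ± 0.64, adjusted p = 0.00263). Snrpb2, for the U2 protein that is the partner of A′, was at 98.7, 70.3 and 96.5 RPKM in vivo and at no more than 3.92 RPKM in any NT 4-cell library. Snrpa, Prpf39 and Snrpb2, whose promoters are printed above, were picked for their large differences at this stage. Their shared direction therefore says nothing of the motifs. Snrpa1 was at 32.8, 28.9 and 47.7 RPKM in NTC and 32.9, 34.6 and 24.6 RPKM in NTM, and Snrpc at 33.9, 30.1 and 41.9 RPKM in NTC and at 11.9 to 24.0 RPKM in NTM.

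The Lsm2 to Lsm8 ring was lower in 7 of 7 genes in NTC and in 6 of 7 in NTM, with log2 differences from -3.36 to -1.71 in NTC. Lsm7 had a mean of 0.310 RPKM in NTC and passed the filter only through the in vivo libraries. In NTC it could thus be called only as lower. Lsm2 was at 11.1, 13.2 and 23.1 RPKM in NTC and 16.3, 18.4 and 16.5 RPKM in NTM, against 143 RPKM or more in vivo. Lsm4 was at 23.7, 29.8 and 25.1 RPKM and at 36.0, 19.9 and 25.2 RPKM. Lsm5 differed between the 2 tests, at 61.1, 30.5 and 23.5 RPKM in NTC (called) and 150, 87.9 and 48.1 RPKM in NTM (adjusted p = 0.485). Whether NTC and NTM themselves differ at this stage was not tested.

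Among the further Lsm genes, Lsm14a was the 1 member higher in both kinds of NT embryo, at 19.5, 22.1 and 49.2 RPKM in NTC (1.87 ± 0.44, adjusted p = 0.0128) and 21.8, 29.1 and 21.4 RPKM in NTM (1.66 ± 0.45, adjusted p = 0.0334). The groups did not overlap, yet the adjusted p rose to between 0.0668 and 0.0885 without in vivo 4-cell replicate 2 or 3. Lsm10 and Lsm12 were lower in NTC, and neither was called in NTM, where Lsm10 spread from 0 to 67.0 RPKM and Lsm12 was at 71.5, 17.4 and 53.1 RPKM, against 41.0, 17.5 and 40.4 RPKM in NTC.

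SF3a and SF3b were split. Each of the 3 SF3a genes and Sf3b5 were lower in both kinds of NT embryo. Sf3a1 and Sf3a2 had NT means below 0.5 RPKM and passed the filter only through the in vivo libraries. They could thus be called only as lower. Sf3b5 was at 2.18, 0.747 and 3.35 RPKM in NTC (-5.01 ± 0.45, adjusted p = 0.000104) and at 2.50, 1.81 and 2.30 RPKM in NTM (-4.87 ± 0.46, adjusted p = 0.00059), and Sf3a1 at or below 0.565 RPKM in all 6. The other 5 SF3b genes were not called in either test. Sf3b1 was at 38.9, 40.6 and 42.9 RPKM in NTC and 26.8, 59.8 and 31.6 RPKM in NTM, and Sf3b6 at 144, 134 and 237 RPKM and at 295, 224 and 125 RPKM. For Sf3b1 in NTC the adjusted p was 0.0349 but the log2 difference of -0.87 was under the limit of 1.

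Among the Prpf genes, NTC embryos were below in vivo in 4 of 11 tested and NTM embryos in 3 of 12. Prpf39 was at 56.6, 55.7 and 66.0 RPKM in vivo, at 1.76, 0.173 and 0.222 RPKM in NTC (-5.25 ± 0.44, adjusted p = 7.41e-05) and at 10.4, 0.163 and 1.24 RPKM in NTM (-4.28 ± 0.81, adjusted p = 0.0096). Prpf18, a second-step factor, and Prpf3, of the U4/U6 particle, were lower in both, and Prpf6, which bridges the tri-snRNP, in NTC. Prpf38a was at 44.4, 46.7 and 40.4 RPKM in NTC and 38.3, 32.8 and 63.0 RPKM in NTM, above the in vivo libraries but not called (adjusted p = 0.0596 and 0.205). Prpf8, the large protein at the heart of the spliceosome, had means of 10.8 and 12.5 RPKM against 9.80 RPKM.

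**Figure D3:**
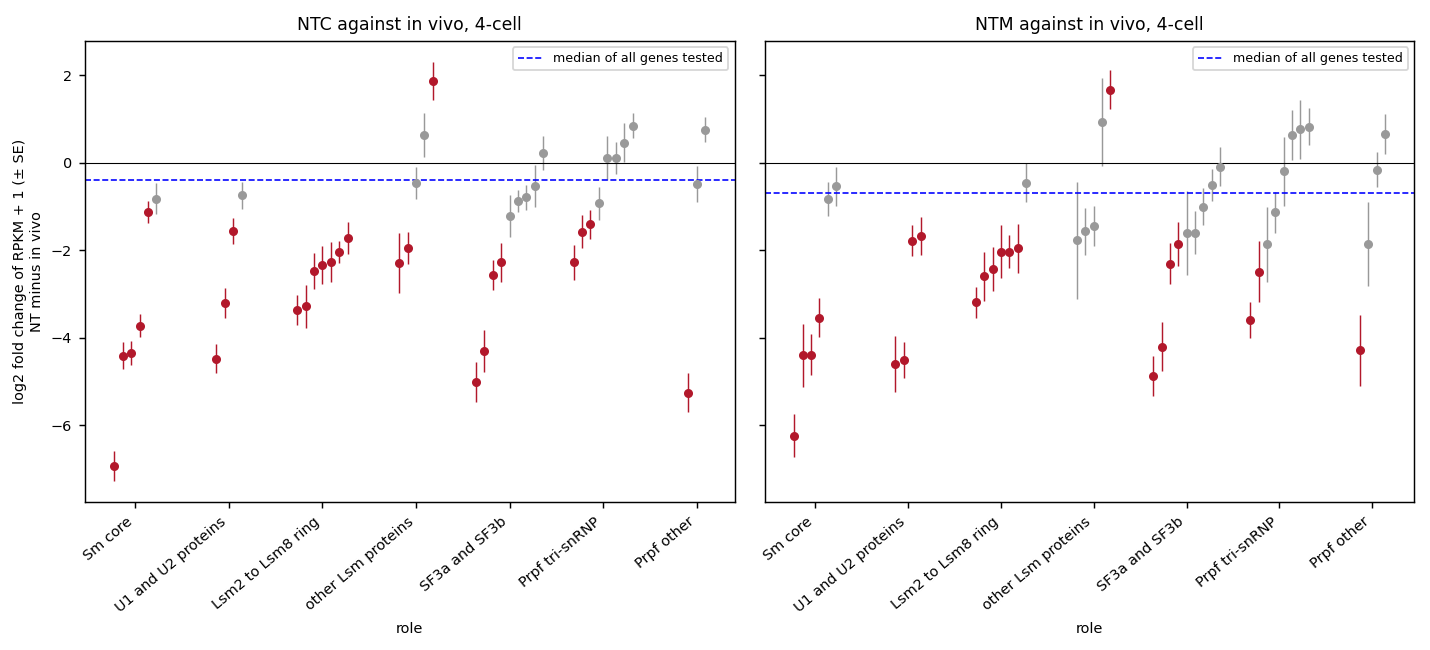
log2 difference (± SE) between NT and in vivo 4-cell embryos for each member tested, by role, with called members in red, the others in grey, and the median of all genes as a dashed line (-0.39 for NTC on the left, -0.69 for NTM on the right). Snrpd1 is the lowest point in both panels, and Lsm14a is the red point above 0.

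Over all genes, short ones were lower in NT 4-cell embryos more often than long ones, so the members were also counted on either side of the median exon length. In NTC, of the members shorter than the median of the genes tested 17 of 22 were lower (25.1% of all shorter genes), and of the longer ones 8 of 20 (15.8%). In NTM these were 13 of 22 (22.5%) and 8 of 21 (13.1%). Near-identical copies in other genes were found for 19 of the 47, which could split their reads. Among members without such a copy, NTC embryos were lower in 13 of 26 and NTM embryos in 11 of 26, and among those with a copy in 12 of 16 and 10 of 17. Copies were searched for the members only, so no share of all genes stands beside this split. Snrpd1 (42.0% of its transcript), Snrpg (29.9%) and Snrpa (62.6%) have copies and their levels are uncertain to that extent, while Snrpb, Snrpb2, Lsm2, Sf3a1 and Sf3b5 have none. The low mitochondrial share of the in vivo 4-cell libraries moved with these differences. With mitochondrial reads left out of the totals, 21 members were lower and 3 higher in NTC and 15 lower and 1 higher in NTM, and the in vivo fall to the 8-cell stage held 23 lower and 1 higher. With median-ratio scaling that fall held 18 lower and 8 higher. Shares of all genes are not given for either setting, so the members cannot be set against them there.

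The neighbouring genes of the pathway were counted by list. Of 58 further snRNP and spliceosome proteins, 57 were tested, and 25 were lower and 2 higher in NTC 4-cell embryos, and 19 lower and 0 higher in NTM. Of all genes tested, 20.4% were lower and 7.4% higher in NTC, and 17.8% lower and 3.33% higher in NTM. Snrnp40, of the U5 particle, had means of 38.6 RPKM in vivo and 0.6 RPKM in NTC (-4.61 ± 0.37, adjusted p = 6.42e-05), and Ctnnbl1 78.2 and 5.85 RPKM in NTC (-3.82 ± 0.52, adjusted p = 0.000947). In NTM the same genes were at 0.912 and 3.36 RPKM (-4.45 ± 0.53 and -4.75 ± 0.78). Higher were Smndc1 (1.29 ± 0.28, adjusted p = 0.00893) and Htatsf1 (1.2 ± 0.32, adjusted p = 0.0215). Of 18 genes of snRNP assembly, 17 were tested, with 6 lower and 2 higher in NTC and 7 lower and 0 higher in NTM. Smn1, whose protein loads the Sm ring onto snRNA, had means of 93.4 RPKM in vivo, 5.14 RPKM in NTC and 4.93 RPKM in NTM, and Ncbp1, of the cap-binding complex, 80.3, 3.74 and 4.39 RPKM. The differences were -3.96 ± 0.33 (NTC) and -4.04 ± 0.44 (NTM) for Smn1 and -4.07 ± 0.35 and -4.11 ± 0.62 for Ncbp1. Strap and Tgs1 were higher in NTC (1.32 ± 0.31 and 1.06 ± 0.33). The 38 SR and hnRNP genes, which regulate splice site choice, had 7 lower and 6 higher in NTC and 8 lower and 4 higher in NTM. Their shares lower, 18.4% and 21.1%, were near those of all genes, and their medians were -0.03 and -0.20. Their counts higher, 6 and 4 of 38, were larger shares than the 7.4% and 3.33% of all genes. Srsf1 had means of 23.2 RPKM in vivo and 144 RPKM in NTC (2.59 ± 0.25, adjusted p = 0.00015), and Hnrnph2 69.9 and 2.17 RPKM (-4.33 ± 0.49, adjusted p = 0.000346). Hnrnpd, at 4.40 RPKM in vivo and 32.4 RPKM in NTC, was also higher (2.55 ± 0.43, adjusted p = 0.0027), and Srrm1, at 36.4 RPKM in vivo, was lower in NTC (4.21 RPKM) and NTM (4.185 RPKM). In NTM, Tra2a (2.80 ± 0.51, adjusted p = 0.00826) and Hnrnpa0 (2.56 ± 0.45, adjusted p = 0.00686) were higher.

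At the other stages few members were called between NT and in vivo embryos. At the 1-cell stage 1 of 38 was called for NTC (1.16% of all genes; Prpf3, higher, 2.59 ± 0.42, adjusted p = 0.0402) and 0 of 38 for NTM (1.28%; 6 with an unadjusted p below 0.05). At the 2-cell stage 0 of 41 were called for NTC (0.152%; 3 with an unadjusted p below 0.05) and 0 of 40 for NTM (0.141%; 2). At the 8-cell stage 1 of 40 was called for NTC (1.46%; Prpf4, higher, 2.96 ± 0.61, adjusted p = 0.0412) and 0 of 41 for NTM (2.02%; 7 with an unadjusted p below 0.05). At the morula stage 0 of 43 were called for NTC (0.0321%; 5) and 0 of 41 for NTM (0.168%; 3). Without 1 library, the calls at the 1-cell stage ranged from 0 to 4 in NTC and from 0 to 2 in NTM, with the highest values without in vivo 1-cell replicate 1, and the 1 call at the 8-cell stage was lost without any 1 of the 6 libraries. Snrpd1 at the 8-cell stage, for example, was at 3.26, 3.11 and 2.88 RPKM in vivo, 2.86, 1.21 and 1.90 RPKM in NTC and 1.68, 2.71 and 6.64 RPKM in NTM.

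Before and after the 4-cell stage the members followed different courses, which are given as levels with no test. Lsm14a and Lsm14b were high early. Lsm14a was at 140, 121 and 126 RPKM in NTC and 182, 149 and 182 RPKM in NTM 1-cell embryos, and at 149, 218 and 178 RPKM and 236, 209 and 148 RPKM at the 2-cell stage, overlapping the in vivo range of 140 to 246 RPKM over both stages. Lsm14b, at 13.9 to 70.3 RPKM in the in vivo 1-cell libraries, was at or below 1.19 RPKM in all in vivo 4-cell, 8-cell and morula libraries. Sf3b6 and Lsm5 were low early and high late. Sf3b6 was at 133 to 261 RPKM in in vivo, 134 to 213 RPKM in NTC and 173 to 234 RPKM in NTM blastula embryos. Lsm5 was at 66.7, 99.6 and 55.5 RPKM in NTC and 66.8, 90.3 and 108 RPKM in NTM blastula embryos, below the 3 in vivo libraries but not called. In NTC blastula embryos Snrpa1 was at 31.3, 23.4 and 14.6 RPKM and Snrpd2 at 25.9, 32.2 and 29.5 RPKM. Sf3b1 was present at early and late stages alike, at 42.5, 59.3 and 45.8 RPKM in NTC and 17.3, 40.6 and 28.9 RPKM in NTM morulae. Some groups spread widely in this stretch. In vivo blastula replicate 3 was at 192 RPKM for Lsm4, against 46.8 and 42.0, and Prpf38a was at 4.17, 62.9 and 170 RPKM in that group. In vivo morula replicate 1 was at 6.63 RPKM for Sf3b1, against 47.8 and 41.4.

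At the blastula stage 2 of 42 members were called for NTC (9.46% of all genes) and 0 of 42 for NTM (0.746%; 5 with an unadjusted p below 0.05). The medians of the members, 0.02 for NTC and 0.05 for NTM, lay below those of all genes, 0.85 and 0.86, in a comparison whose in vivo libraries had few genes above 0. Sf3b4 was at 3.47, 0.324 and 0.685 RPKM in vivo and at 62.1, 48.8 and 24.2 RPKM in NTC (4.32 ± 0.75, adjusted p = 0.0267), and Sf3b3 at 0.533, 2.45 and 1.01 RPKM against 18.4, 16.7 and 19.8 RPKM (3.13 ± 0.61, adjusted p = 0.032). Both genes encode SF3b subunits and neither overlapped between the groups. The 4.76% of members called was nevertheless below the share of all genes. Under median-ratio scaling neither was called (adjusted p = 0.0518 and 0.0663), and neither was without NTC blastula replicate 1, NTC blastula replicate 2 or in vivo blastula replicate 3. The call of Sf3b4 was also lost without in vivo blastula replicate 2, and that of Sf3b3 without NTC blastula replicate 3. In NTM blastula embryos Sf3b4 was at 50.2, 95.6 and 9.62 RPKM and was not called.

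The kinds of NT embryo were compared with each other at the 1-cell stage alone. NTM against NTC 1-cell embryos gave 5 higher and 5 lower of 37 tested (5.64% and 14.2% of all genes), so the share lower was no more than that of all genes. Sf3b4 was at 26.5, 19.8 and 44.3 RPKM in NTC and at 0.196, 0.469 and 0.0560 RPKM in NTM (-4.59 ± 0.37, adjusted p = 0.000187). Snrpe was higher in NTM, at 13.9, 12.1 and 21.7 RPKM against 2.81, 2.52 and 2.68 RPKM (2.16 ± 0.31, adjusted p = 0.00215), as were Lsm5, Snrpg, Lsm1 and Sf3b6, while Lsm12, Snrpc, Lsm14b and Prpf4 were lower. Sf3b4 and Snrpc had NTM means of 0.2405 and 0.00688 RPKM and passed the filter only through NTC. They could thus be called only as lower. The count of 10 went to 5 or 6 without NTC 1-cell replicate 3, NTM 1-cell replicate 1 or NTM 1-cell replicate 3. In the donor cells Sf3b4 was at 80.7, 124 and 71.5 RPKM in CC and 70.3, 64.0 and 55.8 RPKM in MEF. In the donors themselves 1 of 43 members was called (6.29% of all genes), Snrpg, at 18.3, 25.6 and 46.7 RPKM in CC and 5.38, 3.42 and 3.85 RPKM in MEF (-2.49 ± 0.58, adjusted p = 0.0389), and that call was lost without any 1 of the 6 libraries. In vivo 4-cell levels of Snrpd1 (335 to 463 RPKM) were also above both donors, at 1.10 to 3.29 RPKM, whereas Sf3b1 in CC (29.2, 41.1 and 71.8 RPKM) and MEF (37.2, 53.6 and 69.6 RPKM) overlapped the embryos.

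**Figure D4:**
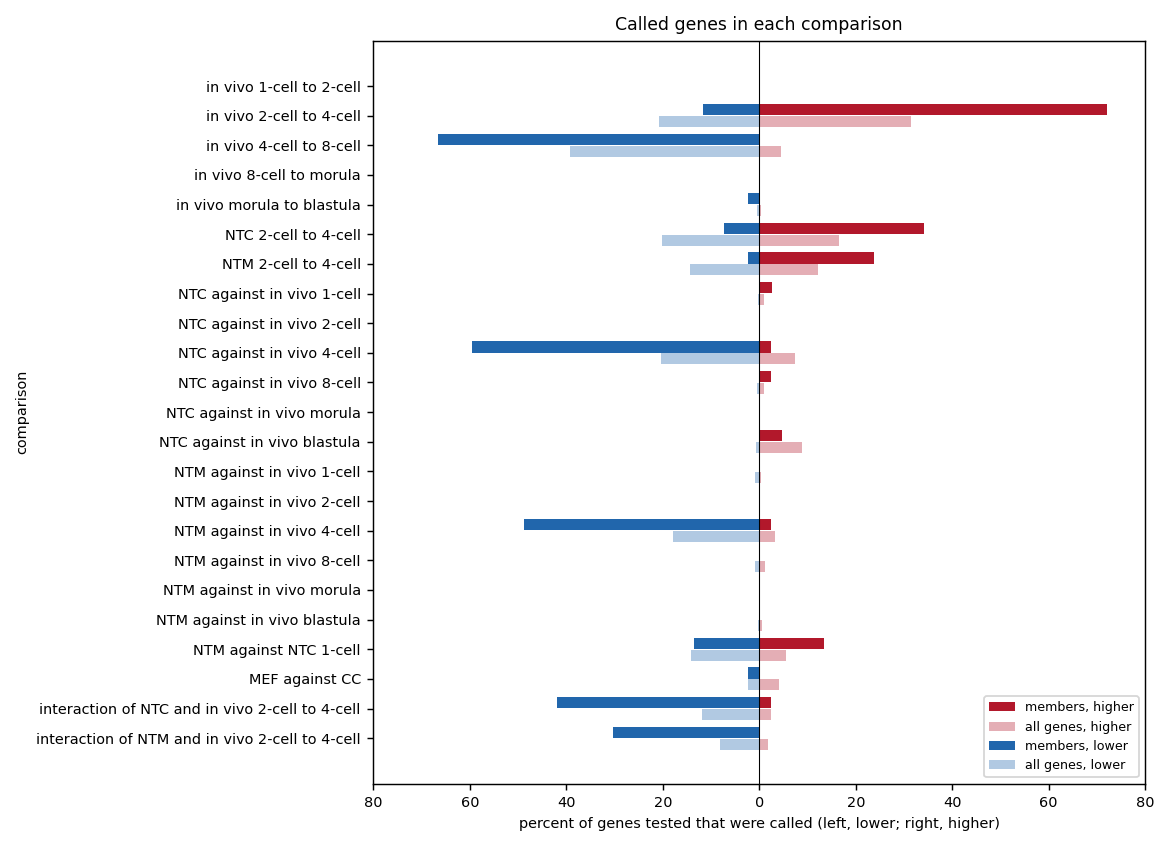
Percent of tested genes called lower (left, blue) or higher (right, red) in each of the 23 comparisons, for the members (solid) and all genes (pale). The members' bars pass those of all genes at the in vivo steps to (higher) and from (lower) the 4-cell stage, in both interactions (lower) and in the comparisons of NT with in vivo 4-cell embryos, where 59.5% (NTC) and 48.8% (NTM) of the members tested were lower. They also pass on the higher side at the NTC (34.1% against 16.4%) and NTM (23.8% against 12.1%) steps to the 4-cell stage. The same holds in NTM against NTC 1-cell embryos (13.5% against 5.64%). In some other comparisons a bar of 1 member also passes.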

How the data were processed

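The authors deposited 1 table of RPKM values for 60 single-embryo or donor-cell libraries. Per the labels, the submitters' notes name Bowtie 0.12.2 and genome build mm8, while the study's methods name another aligner and counter, so the mapping settings behind the values are uncertain. Libraries were made by poly(A) tailing with PCR and without molecular identifiers, so counting floors cover counting error only. All 60 value columns were used. Read totals were recovered from the steps of low values at GENCODE M21 exon lengths, where 76.6% to 82.7% of low values were whole within 0.05 reads, and 45 of the 47 members gave whole reads within 0.03 at 1 length. RPKM is per length of all exons, so levels of genes with short transcripts are understated. The deposited RPKM values were set to log2(RPKM + 1), filtered at a mean of 0.5 in the libraries compared and tested with limma 3.58.1 (R 4.3.3, trend), with Benjamini-Hochberg adjustment over all genes and a limit of 0.05 and of 1 in log2 size, in 23 comparisons of 3 against 3 and 2 interactions among them. A step named NTC or NTM takes the later minus the earlier stage, and a difference is NT minus in vivo. Nothing in the labels says more of the replicates than that each is a separate embryo or sample. Copies were found with BLAST 2.17.0 (95% identity over 150 bases). Scripts in Python 3.11.15 were tested on simulated data.

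Named with per-library values were the 2 members of each role with the highest mean level over the 54 embryo libraries (1 member is not reported here by name, though it is in the counts), and named with a test the 3 called members with the largest change in each direction at the in vivo steps, in the NT comparisons at the 4-cell and blastula stages, in the interactions and between donors. The other members named, with their values, were chosen after their values were seen. Of the pathway lists, the 2 called genes with the largest change in each direction were named. The members and lists were chosen with earlier results of these data known. Alternatives were a pseudocount of 0.1, no filter, 1 fit over all 20 groups, the replicate number as a block, no fold limit, median-ratio scaling, totals without mitochondrial reads and leaving out each library.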

Additional observations from a re-analysis of the deposited data

Results flagged for a closer look

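The step from the 2-cell to the 4-cell stage differed between NT and in vivo embryos by a test of the difference itself (limma interaction, Benjamini-Hochberg adjusted). It was called for 19 of 43 members in NTC embryos (18 below 0 and 1 above) and for 13 of 43 in NTM embryos, all below 0. Of all genes, 12% were below 0 and 2.38% above in NTC, and 8.05% and 1.86% in NTM. The direction of Sf3a2 (NTC and NTM) and of Lsm7 (NTC) was fixed by the filter on low values. The NTC difference of steps was -5.94 for Snrpd1, -5.67 for Sf3b5 and -5.21 for Prpf39 on the log2 scale, and 2.10 for Lsm14a. The NTM difference of steps was -5.66 for Snrpb, -5.55 for Snrpa and -5.35 for Snrpd1. Groups of 3 libraries were too small for a search for single outlying libraries.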

How the results depend on the processing

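Of the members named with a test, none changed direction except Snrpd1 when 8-cell took the place of 4-cell libraries. With 1 library left out, members called ranged from 26 to 35 (of 36) for in vivo 2-cell to 4-cell, 25 to 28 for in vivo 4-cell to 8-cell, 12 to 16 for the NTC and 5 to 11 for the NTM step to the 4-cell stage, 20 to 27 for NTC and 13 to 22 for NTM against in vivo 4-cell, 18 to 22 and 10 to 15 for the NTC and NTM interactions, 5 to 10 for NTM against NTC 1-cell, 0 to 4 and 0 to 2 for NTC and NTM against in vivo 1-cell and 0 to 2 for both against in vivo blastula, and were 0 for morula to blastula, NTC against in vivo 8-cell and MEF against CC. The cause of these and the following shifts was not tested. Shares of all genes are not given for these settings, so the counts show only how the members' calls moved.

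In 1 fit over all 20 groups, 2 members were called for in vivo 1-cell to 2-cell, 7 for morula to blastula, 21 for NTM 2-cell to 4-cell, 4 and 3 for NTC and NTM against in vivo 1-cell, 3 for each against in vivo 2-cell, 2 for NTC against in vivo 8-cell, 8 and 7 for NTC and NTM against in vivo blastula, 5 for NTM against NTC 1-cell and 2 for MEF against CC. With no filter on low values 0 were called for morula to blastula, for NTC against in vivo 1-cell, 8-cell and blastula and for MEF against CC, and 5 for NTM against NTC 1-cell. Median-ratio scaling gave 14 for NTM against in vivo 4-cell and 0 for NTC against in vivo 1-cell and blastula. The pseudocount of 0.1 gave 0 for NTC against in vivo 1-cell and 2 for NTM against in vivo blastula, and totals without mitochondrial reads gave 2 for the latter.

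The replicate block left 0 calls for NTC against in vivo 1-cell and blastula and for MEF against CC, moved no other count by over 1.5 times, and ended the call of Lsm14a for NTM against in vivo 4-cell. Same-numbered libraries did not deviate together (no comparison had all 3 correlations over 0.1). With 3 libraries per group this cannot show whether they shared handling or a batch, of which the labels say nothing. With 8-cell in place of 4-cell libraries, chosen after the data were seen, 17 members were called for the in vivo step (11 higher, 6 lower) and 0 in each interaction, and the difference for Snrpd1 turned to 0.50 (NTC) and 0.94 (NTM).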
